A study of Mus musculus with 6 samples.

Results

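Tuft cells are rare chemosensory cells of the intestinal epithelium, and 9 genes that mark them (Dclk1, Trpm5, Pou2f3, Il25, Gfi1b, Avil, Sh2d6, Ptgs1 and Alox5) were followed in RNA sequencing of crypts from WT and Mtg16 KO mice. The genes were chosen by name from what is known of the cell type, with earlier results of these data known. Of the 9, 8 were matched among the 24736 gene symbols deposited. Levels of Sh2d6 were not analysed here. Crypts came from the whole length of the gut of 12-week-old males, 3 WT and 3 Mtg16 KO, all untreated, with 1 library from total RNA per mouse. The labels call the knockout CRISPR-induced, whereas the study's methods describe Mtg16-/- animals obtained from another laboratory, and the origin of the allele was not resolved. Levels are TPM, a share of all transcripts in a library that is corrected for transcript length and can be compared between genes.

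Tuft cells read luminal contents through a taste-like cascade. A G protein-coupled receptor activates gustducin and phospholipase C beta, calcium leaves internal stores through an inositol trisphosphate receptor, and the cation channel TRPM5 opens. They then release IL-25, which acts on type 2 innate lymphoid cells, and lipid mediators made by cyclooxygenase and 5-lipoxygenase. POU2F3 is the transcription factor the lineage depends on. In crypts, tuft cells arise from the same progenitors that give enterocytes and secretory cells, and the study concerns how the co-repressor MTG16 bears on that choice of fate. The comparison asks whether the genes of this minor lineage differed with the knockout.

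The libraries resembled each other, with Pearson's r across genes, of log2(TPM + 1), from 0.931 to 0.980. Cbfa2t3, which encodes MTG16, had a TPM of 3.67 to 6.69 in WT and 3.23 to 6.43 in Mtg16 KO crypts, so its gene-level TPM did not separate the genotypes and each direction given here rests on the labels. Over all genes, 4 of 12268 tested were called (limma, adjusted p under 0.1), or 0.0326%, and those lower in Mtg16 KO crypts were 0.0163%. Lyz1, which marks the Paneth cells of crypts, was at 1406 TPM or more in every library, while the glial gene Sox10 was listed at 0 throughout. T cell genes were present in all libraries, with the TPM of Cd3e between 6.20 and 31.0.

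None of the tuft genes passed the test. The 6 that were abundant enough to be tested all had log2 fold changes below 0, lower in Mtg16 KO crypts, as had 53.6% of all genes. These 6 genes varied together over the libraries (median r of 0.922 between pairs), so their signs are not 6 separate observations. Their median log2 fold change, on the log2(TPM + 1) scale, was -0.43, against -0.03 over all 12268 genes. By limma's moderated test, 0 of the 6 were called at an adjusted p under 0.1 and 0 at an unadjusted p under 0.05, where 0.0326% and 14.6% of all genes were. With the replicate number as a block, which called 9.79% of all genes, or with array weights, the count of tuft genes called was also 0. WT replicate 3 was the top library for each of the 6 genes. Without that mouse the median was -0.21, and 5 of the 6 remained below 0. Fewer tuft cells and less RNA per tuft cell cannot be told apart in bulk crypts.

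**Figure D1:**
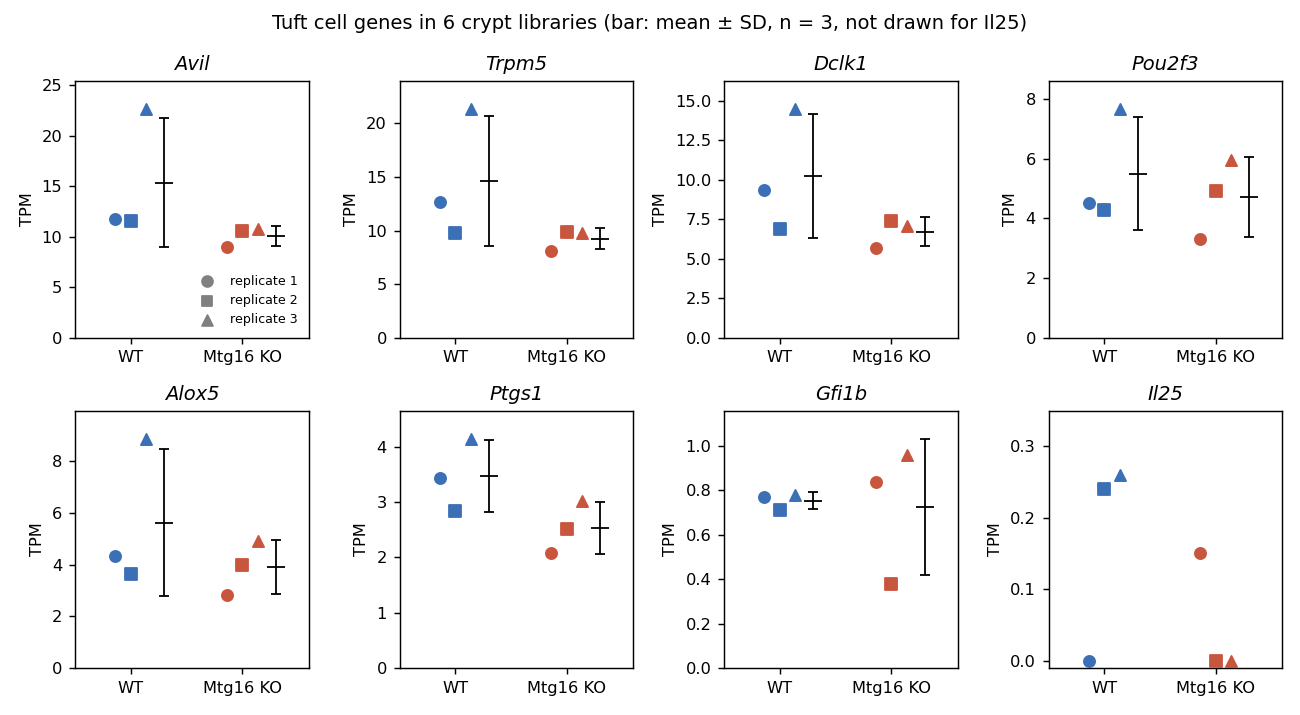
TPM (vertical axis, from 0) of the 8 measured tuft cell genes in WT (blue) and Mtg16 KO (red) crypts, 1 point per mouse with the marker showing the replicate number, and mean ± SD (n = 3) in black except for Il25. WT replicate 3 is the highest point for Avil, Trpm5, Dclk1, Pou2f3, Alox5 and Ptgs1, while the other WT mice lie near or among the Mtg16 KO mice.

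Dclk1 encodes a microtubule-associated kinase and is the most widely used tuft cell marker. It lies on chromosome 3 of GRCm38 (55242303 to 55539068). Its TPM was 9.33, 6.87 and 14.5 in the WT mice and 5.67, 7.42 and 7.06 in the Mtg16 KO mice. The groups overlapped, because WT replicate 2 lay below 2 of the 3 Mtg16 KO mice. The means were 10.2 ± 3.91 and 6.72 ± 0.924 TPM (SD, n = 3 each), a log2 fold change of -0.49 (SE 0.25, limma adjusted p = 0.400). Without WT replicate 3 it was -0.23.

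Trpm5, the cation channel that opens at the end of the taste cascade (chromosome 7, 143071529 to 143094642), followed Dclk1 almost exactly. Its TPM was 12.7, 9.81 and 21.4 in WT and 8.13, 9.89 and 9.75 in Mtg16 KO crypts. WT replicate 3 stood far above the rest, and WT replicate 2 fell between the Mtg16 KO values. The log2 fold change was the largest among the tested genes of the set, -0.54 (SE 0.26, limma adjusted p = 0.372), and -0.25 without WT replicate 3.

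Avil encodes advillin, an actin-binding protein of the villin family that belongs to the long apical bundles of tuft cells (chromosome 10, 127000065 to 127020994). It had the highest mean of the set, with a TPM of 11.8, 11.6 and 22.7 in WT and 8.95, 10.6 and 10.8 in Mtg16 KO crypts. Avil was the 1 gene of the 6 whose groups did not overlap, a pattern found in 21.0% of all tested genes, and in 11.1% with the Mtg16 KO values lower. The exact two-sided permutation test gave p = 0.1, the smallest that 3 mice against 3 allow. Its log2 fold change was -0.50 (SE 0.25, limma adjusted p = 0.392), and -0.20 without WT replicate 3.

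Pou2f3 encodes the POU-domain factor on which the lineage depends (chromosome 9, 43123927 to 43205755). Its TPM was 4.52, 4.29 and 7.68 in WT and 3.31, 4.90 and 5.96 in Mtg16 KO crypts. The groups were interleaved, with 2 of the 3 Mtg16 KO mice above 2 of the 3 WT mice. This gene differed least among the 6, by a log2 fold change of -0.17 (SE 0.26, limma adjusted p = 0.772), and the sign turned to 0.055 without WT replicate 3. Gfi1b, a zinc finger repressor that also marks the lineage (chromosome 2, 28609450 to 28621982), was under the limit of a mean TPM of 1. It had a TPM of 0.77, 0.71 and 0.78 in WT and 0.84, 0.38 and 0.96 in Mtg16 KO crypts, with 2 of the Mtg16 KO mice above every WT mouse and the other below them. WT replicate 3 did not stand out in Gfi1b.

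The 2 eicosanoid enzymes of the set were lower on average, with overlapping groups. Ptgs1 encodes cyclooxygenase 1, which starts prostaglandin synthesis (chromosome 2, 36216742 to 36258593). Its TPM was 3.43, 2.84 and 4.15 in WT and 2.08, 2.52 and 3.02 in Mtg16 KO crypts, so that only Mtg16 KO replicate 3 reached into the WT range. Its log2 fold change was -0.34 (SE 0.20, limma adjusted p = 0.454) and -0.23 without WT replicate 3.

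Alox5 encodes 5-lipoxygenase, which starts leukotriene synthesis (chromosome 6, 116410071 to 116461178). Its TPM was 4.33, 3.65 and 8.88 in WT and 2.83, 3.98 and 4.92 in Mtg16 KO crypts. In WT replicate 3 it was 2.23 times the mean of the other WT mice, the widest such gap of the 6 genes. The log2 fold change of -0.37 (SE 0.31, limma adjusted p = 0.577) shrank to -0.04 without that mouse.

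Il25, the cytokine by which tuft cells alert type 2 lymphoid cells (chromosome 14, 54932695 to 54935837), was barely measured. It was listed at 0 in WT replicate 1 and in Mtg16 KO replicates 2 and 3, at 0.24 and 0.26 TPM in WT replicates 2 and 3, and at 0.15 in Mtg16 KO replicate 1. No fold change is given for it. TPM keeps no read number, so the depth behind this value is unknown.

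Ordered by mean TPM over the 6 libraries, the set ran from Avil (12.7) and Trpm5 (11.9) through Dclk1 (8.48), Pou2f3 (5.11), Alox5 (4.77) and Ptgs1 (3.01) to Gfi1b (0.74) and Il25 (0.108). Each neighbouring pair from Avil down to Ptgs1 had ranges that overlapped over the libraries. Within a library the order was steadier. Trpm5 was above Dclk1, Dclk1 above Pou2f3 and Alox5 above Ptgs1 in 6 of 6 libraries, whereas Avil was above Trpm5 and Pou2f3 above Alox5 in 5 of 6. The range of Gfi1b lay wholly below that of Ptgs1, and that of Il25 wholly below that of Gfi1b.

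The tested tuft genes rose and fell together from mouse to mouse. Over the 15 pairs of these 6 genes, Pearson's r across the 6 libraries had a median of 0.922 and lay between 0.804 (Trpm5 and Pou2f3) and 0.995 (Dclk1 and Trpm5). The median over all pairs of tested genes was 0.0328. These are descriptions over 6 points that share WT replicate 3 as their extreme. The spread among WT mice was wider than among Mtg16 KO mice in 6 of 6 genes, with a median SD of log2(TPM + 1) of 0.506 in WT and 0.185 in Mtg16 KO crypts. Over all tested genes these medians were 0.202 and 0.186, and 54.9% of the genes had the wider spread in WT. Of all tested genes, 14.4% were highest in WT replicate 3.

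The promoters of the genes that moved together are shown because POU2F3 recognises the octamer ATGCAAAT. In the RefSeq windows from 250 bases before to 50 after an annotated start (GRCm38.p6), this octamer occurred on either strand in 1.74% of 32851 windows. It was in 0 of the 8 windows of the 7 named tuft genes that had one, Sh2d6 among them. The shorter ATGCAAA, which is part of the octamer, was in 4.63% of all windows and in 1 of these 8. That was Avil, with copies that begin 115 and 15 bases before an annotated start that lies inside the gene span given above. The windows of Avil (plus strand), Trpm5 (minus strand) and both starts of Dclk1 (plus strand) are given 5′ to 3′, with matches in capitals.
Avil, chr10:127000459-127000758: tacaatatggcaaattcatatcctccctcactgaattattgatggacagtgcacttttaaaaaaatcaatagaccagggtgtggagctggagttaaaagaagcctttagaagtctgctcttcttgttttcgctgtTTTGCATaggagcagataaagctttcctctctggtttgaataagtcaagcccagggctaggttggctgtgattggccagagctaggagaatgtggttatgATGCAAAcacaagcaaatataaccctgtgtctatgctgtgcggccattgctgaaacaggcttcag
Trpm5, chr7:143094593-143094892: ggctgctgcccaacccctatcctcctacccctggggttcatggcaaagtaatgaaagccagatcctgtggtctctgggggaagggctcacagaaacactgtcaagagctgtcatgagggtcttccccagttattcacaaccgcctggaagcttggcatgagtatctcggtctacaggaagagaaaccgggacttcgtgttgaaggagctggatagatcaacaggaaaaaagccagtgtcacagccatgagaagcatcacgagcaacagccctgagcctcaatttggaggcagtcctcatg
Dclk1, chr3:55242114-55242413: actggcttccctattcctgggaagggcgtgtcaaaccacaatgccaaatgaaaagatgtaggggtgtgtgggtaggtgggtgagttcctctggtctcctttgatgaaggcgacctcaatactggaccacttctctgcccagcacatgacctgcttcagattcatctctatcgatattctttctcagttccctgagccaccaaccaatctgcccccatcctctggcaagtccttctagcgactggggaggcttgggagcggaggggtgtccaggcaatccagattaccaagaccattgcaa
Dclk1, chr3:55461478-55461777: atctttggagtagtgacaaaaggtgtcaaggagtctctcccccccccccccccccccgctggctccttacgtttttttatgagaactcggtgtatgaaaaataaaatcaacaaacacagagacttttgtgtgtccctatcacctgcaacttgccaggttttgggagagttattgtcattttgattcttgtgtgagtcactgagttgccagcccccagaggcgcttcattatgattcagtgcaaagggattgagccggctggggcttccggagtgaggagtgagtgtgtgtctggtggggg
The 2 windows of Dclk1 belong to different first exons, whose reads a gene-level TPM sums. The annotation also places Tsfm on the other strand across part of Avil, and Tssc4 across part of Trpm5. Whether the counting used strand is not given in the sources used here.

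A wider list of tuft cell genes, compiled from general knowledge, held 48 further names, of which 46 were matched and 38 tested. (Irag2 and Pou2af2, the other 2, are later names of Lrmp and 1810046K07Rik, which are in the list.) By limma's test 0 of the 38 were called at an adjusted p under 0.1. At an unadjusted p under 0.05 there were 9, all lower in Mtg16 KO crypts, or 23.7% against 8.05% of all tested genes in that direction. The groups did not overlap in 11 of the 38 (28.9%), again all lower, against 11.1% of all genes. Itpr2, Plcg2, Ptpn6 and 1810046K07Rik, among both the 9 and the 11, correlated more with T cell genes than with the named tuft genes. The rest of the 9 and of the 11 correlated more with the named tuft genes. With the fits that used the replicate block or array weights, 4 (10.5%) and 7 (18.4%) of the 38 were called, where these fits called 9.79% and 6.97% of all genes. The median log2 fold change was -0.39, with 31 of 38 below 0 where 53.6% of all genes were. Without WT replicate 3 it was -0.23, with 29 of 38 below 0.

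**Figure D2:**
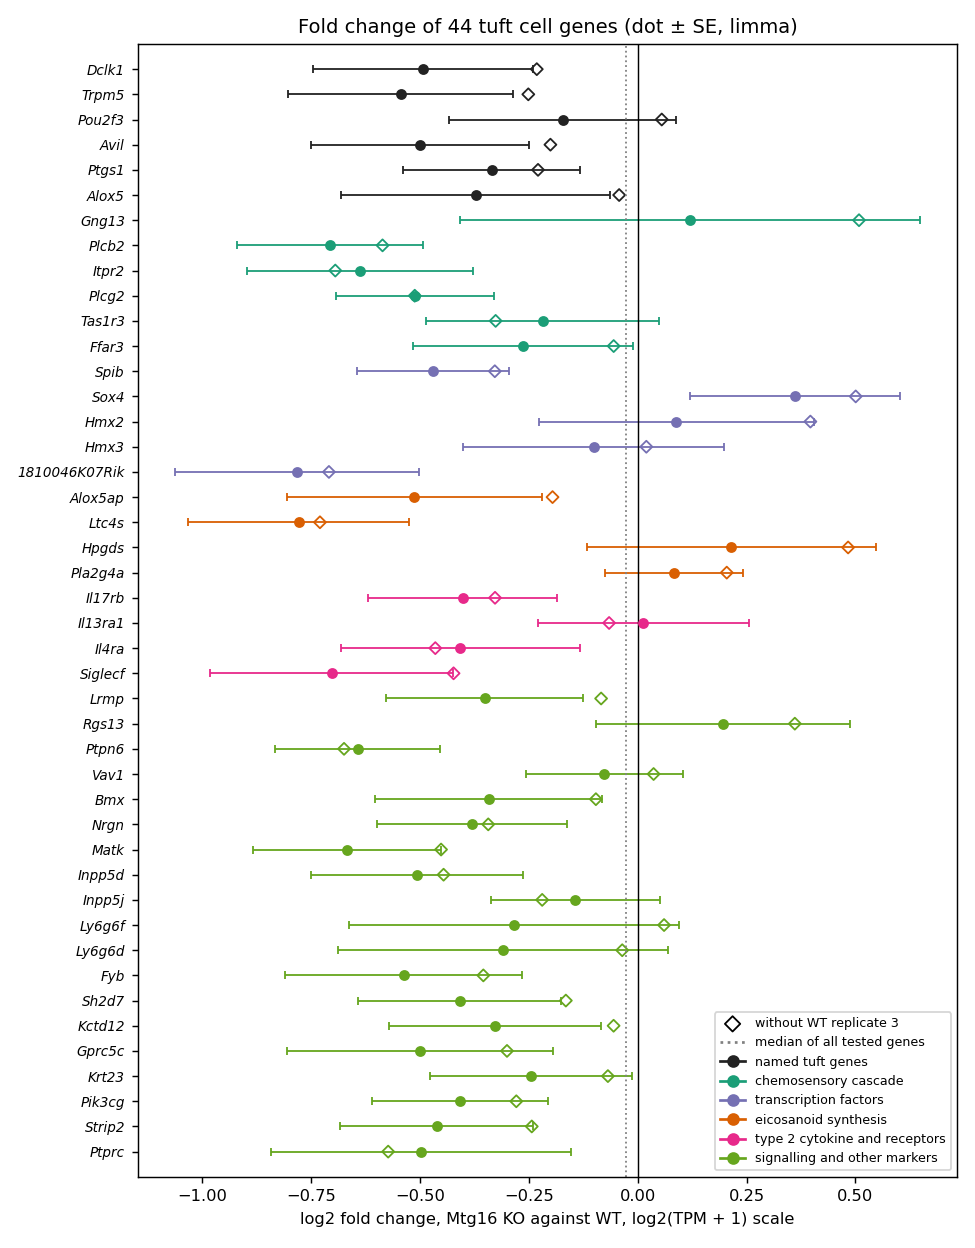
Log2 fold change of Mtg16 KO against WT crypts on the log2(TPM + 1) scale (horizontal axis) for the 44 tested tuft cell genes (vertical axis), coloured by role, as dot ± SE from limma, with the value without WT replicate 3 as an open diamond and the median of all tested genes dotted. 37 of the 44 dots lie below 0, and for all 6 genes in black the diamond lies to the right of the dot.

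In the chemosensory cascade, 5 of the 6 tested genes were below 0, against 53.6% of all genes, and 3 had groups that did not overlap, all lower, against 11.1% of all genes. Plcb2, the phospholipase C of taste transduction, had a TPM of 4.24, 3.36 and 5.15 in WT and 2.17, 2.73 and 1.73 in Mtg16 KO crypts. Every Mtg16 KO mouse lay below every WT mouse, with a log2 fold change of -0.71 (SE 0.21, limma adjusted p = 0.267) that stayed between -0.83 and -0.59 with any mouse left out. Itpr2, an inositol trisphosphate receptor, had a TPM of 11.4, 8.07 and 8.43 in WT and 6.77, 7.14 and 3.47 in Mtg16 KO crypts (log2 fold change -0.64, SE 0.26, limma adjusted p = 0.322). Plcg2, a phospholipase C that lymphocytes also use, had a TPM of 25.2 to 31.7 in WT and 15.4 to 24.1 in Mtg16 KO crypts (log2 fold change -0.51, SE 0.18, limma adjusted p = 0.293). Neither of these was highest in WT replicate 3. The remaining genes of the cascade overlapped. Ffar3, a receptor for short-chain fatty acids, differed by -0.26, and Tas1r3, a subunit of sweet and umami receptors, by -0.22, on the log2 scale, a sign that turned with array weights or without Mtg16 KO replicate 3. Gng13, the gamma subunit of gustducin, ranged from 0.74 to 4.48 TPM in WT and from 0.72 to 4.28 in Mtg16 KO crypts. Of the genes under the limit, the gustducin alpha gene Gnat3 was at 1.64 TPM or less, the acetylcholine-synthesizing Chat at 0.78 or less and the succinate receptor Sucnr1 at 1.38 or less in every library.

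Among the 5 tested transcription factors of the wider list, 2 had groups that did not overlap, the co-activator of POU2F3 and Spib. Both were lower, a pattern found in 11.1% of all tested genes, and the others did not part the genotypes. 1810046K07Rik, which encodes this co-activator (now named Pou2af2), lies on chromosome 9 (51289686 to 51328924). It had a TPM of 8.39, 4.88 and 7.66 in WT and 4.67, 2.16 and 4.24 in Mtg16 KO crypts. All Mtg16 KO values lay below the lowest WT value, by a narrow margin. The log2 fold change of -0.78 (SE 0.28, limma adjusted p = 0.297) was the lowest of the 44 genes, and -0.71 without WT replicate 3. Over the 6 libraries 1810046K07Rik correlated at r = 0.53 with the mean of the named tuft genes and at 0.63 with that of T cell genes. Spib, an ETS-family factor shared with B cells and M cells, had a TPM of 10.6, 9.82 and 14.1 in WT and 7.16, 7.70 and 9.01 in Mtg16 KO crypts (log2 fold change -0.47, SE 0.17, limma adjusted p = 0.305). Sox4, an early tuft and enteroendocrine factor, had a higher mean in Mtg16 KO crypts (28.9 ± 8.78 against 36.5 ± 6.19 TPM, SD, n = 3 each), with overlapping groups (log2 fold change 0.36, SE 0.24, limma adjusted p = 0.501). The homeobox genes Hmx2 and Hmx3 had log2 fold changes of 0.09 and -0.10.

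The window before the first annotated start of 1810046K07Rik (minus strand) is shown because it held the full octamer, at 86 and 55 bases before the start and on opposite strands. The octamer was found in 6 of the 57 windows of the 47 listed tuft genes that had any (10.5%, against 1.74% of all windows). These were windows of 1810046K07Rik, Hpgds, Il4ra, Kctd12, Ly6g6d and Sucnr1. A match of letters is a description, not a binding site.
1810046K07Rik, chr9:51328869-51329168: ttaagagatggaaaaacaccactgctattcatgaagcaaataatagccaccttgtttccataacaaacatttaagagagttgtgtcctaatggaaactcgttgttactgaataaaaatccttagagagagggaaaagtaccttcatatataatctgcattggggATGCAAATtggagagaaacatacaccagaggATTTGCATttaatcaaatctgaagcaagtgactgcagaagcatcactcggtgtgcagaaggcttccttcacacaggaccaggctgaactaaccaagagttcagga

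Of the other eicosanoid synthesis genes, those of the leukotriene branch were lower on average in Mtg16 KO crypts, and no gene was called. Alox5ap, the partner protein of 5-lipoxygenase, had a TPM of 10.9, 9.45 and 20.6 in WT and 7.87, 7.24 and 11.6 in Mtg16 KO crypts, overlapping and with the high WT replicate 3 of Alox5 (log2 fold change -0.51, SE 0.29, limma adjusted p = 0.435). Ltc4s, the synthase that makes leukotriene C4, had a TPM of 11.4, 9.18 and 11.4 in WT and 7.34, 3.53 and 7.21 in Mtg16 KO crypts. Its groups did not overlap, WT replicate 3 was not apart from WT replicate 1, and the log2 fold change of -0.78 (SE 0.25, limma adjusted p = 0.280) was -0.73 without WT replicate 3. Hpgds, the prostaglandin D synthase, and Pla2g4a, the phospholipase that releases arachidonic acid, had log2 fold changes of 0.22 and 0.08 with overlapping groups. Tbxas1, the thromboxane synthase, was at 0.27 TPM or less.

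Of the type 2 cytokine and receptor genes, Siglecf, a sialic acid-binding lectin of tuft cells and eosinophils, had a TPM of 4.95, 3.26 and 8.01 in WT and 2.51, 2.55 and 3.25 in Mtg16 KO crypts. The groups just failed to meet, at 3.26 against 3.25, and the log2 fold change was -0.70 (SE 0.28, limma adjusted p = 0.314), or -0.42 without WT replicate 3. Il17rb, a subunit of the IL-25 receptor, and Il4ra had log2 fold changes of -0.40 and -0.41, and Il13ra1, which pairs with Il4ra in the IL-13 receptor, one of 0.01. The groups of these 3 genes overlapped. Tslp was at 0.40 TPM or less, and the type 2 cytokine genes Il4, Il5 and Il13 were listed at 0 in all 6 libraries.

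Among the 19 tested signalling and other markers, 18 were below 0 and 4 had groups that did not overlap (Ptpn6, Matk, Strip2 and Pik3cg), all lower, or 21.1% against 11.1% of all genes. Matk, a kinase that restrains Src-family kinases, had a TPM of 5.57, 4.89 and 8.73 in WT and an even 3.46, 3.71 and 3.48 in Mtg16 KO crypts (log2 fold change -0.67, SE 0.22, limma adjusted p = 0.279). Ptpn6, a phosphatase also abundant in leukocytes, had a TPM of 38.4, 26.6 and 29.9 against 24.6, 18.1 and 17.0 (log2 fold change -0.64, SE 0.19, limma adjusted p = 0.263). These genes had the lowest fold changes of the group. Strip2, Pik3cg (a catalytic subunit of phosphoinositide 3-kinase), Lrmp, Kctd12 (an auxiliary subunit of GABA-B receptors) and Sh2d7 had log2 fold changes between -0.46 and -0.33. Inpp5j, an inositol phosphatase gene, had the highest mean TPM of this group over the 6 libraries, at 28.2 ± 6.05 in WT and 25.4 ± 4.75 in Mtg16 KO crypts (SD, n = 3 each), with overlapping groups. Rgs13, a regulator of G protein signalling, was the 1 gene of this group above 0, at 0.20, a sign that turned with array weights or without WT replicate 2 or Mtg16 KO replicate 3, with its highest TPM of 14.1 in Mtg16 KO replicate 3.

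**Figure D3:**
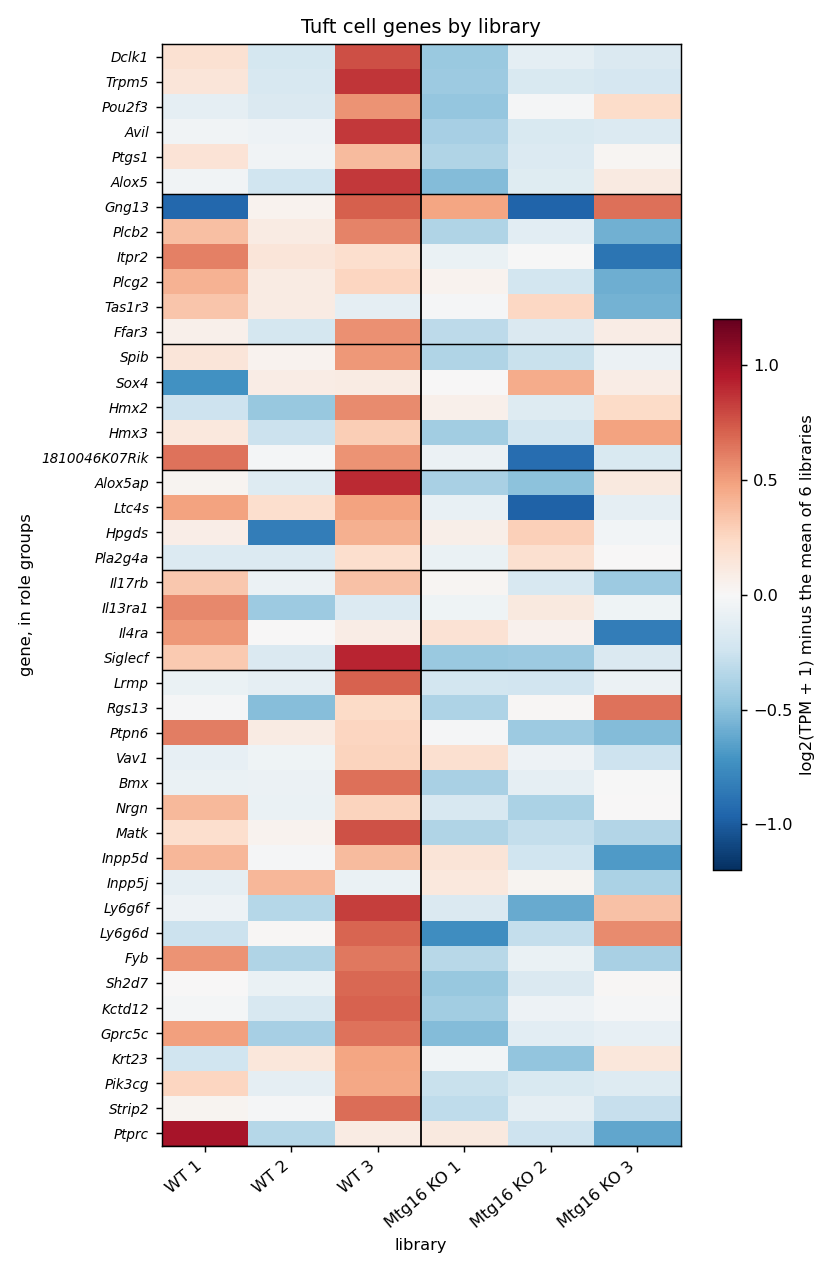
Deviation of log2(TPM + 1) from the gene's mean over the 6 libraries (colour, red above and blue below), for the 44 tested tuft cell genes (rows, in role groups separated by lines) and the 6 libraries (columns, WT left of the vertical line). WT replicate 3 is the reddest column in 30 of the 44 genes, and WT replicate 1 in 10, among them Ptprc, Ptpn6, Plcg2 and Il4ra. Of all tested genes, 14.4% were highest in WT replicate 3 and 31.4% in WT replicate 1.

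Many of the wider genes ran over the libraries either like the named tuft genes or like T cell genes, and a few like neither. Each gene was compared with the mean deviation of the 6 tested named genes (leaving out the gene itself) and with that of 8 T cell and intraepithelial lymphocyte genes. Of the 38 wider genes, 26 correlated more with the tuft mean and 12 more with the T cell mean. Some of the 26 were near ties. In Ltc4s, Plcb2 and Fyb r with the tuft mean was 0.49, 0.73 and 0.78, and with the T cell mean 0.48, 0.72 and 0.77. In Kctd12, Sh2d7 and Bmx r with the tuft mean was 0.99, 0.99 and 0.98, over 6 libraries. Sox4 (r of -0.06 with the tuft mean and -0.69 with the T cell mean), Inpp5j (-0.35 and 0.15) and Gng13 (0.24 and -0.42) followed neither. In Ptprc, Inpp5d, Il4ra, Il17rb and Plcg2, r with the T cell mean was 0.97, 0.92, 0.92, 0.92 and 0.91, and r with the tuft mean was at most 0.52. The tuft and T cell means correlated with each other at r = 0.249. The T cell pattern was not particular to T cells. Over WT 1 to 3 and then Mtg16 KO 1 to 3, the T cell mean deviations were 1.27, -0.41, 0.43, 0.22, -0.26 and -1.24. Those of the 8 enterocyte genes were 1.53, -0.04, 0.31, -0.01, -0.86 and -0.92. The wider genes were not compared with the enterocyte genes. Without WT replicate 3 the median log2 fold change of the 26 was -0.09, from -0.35 with all mice, while that of the 12 was -0.46, from -0.45. Because genes were sorted on the same libraries, these medians are descriptions.

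**Figure D4:**
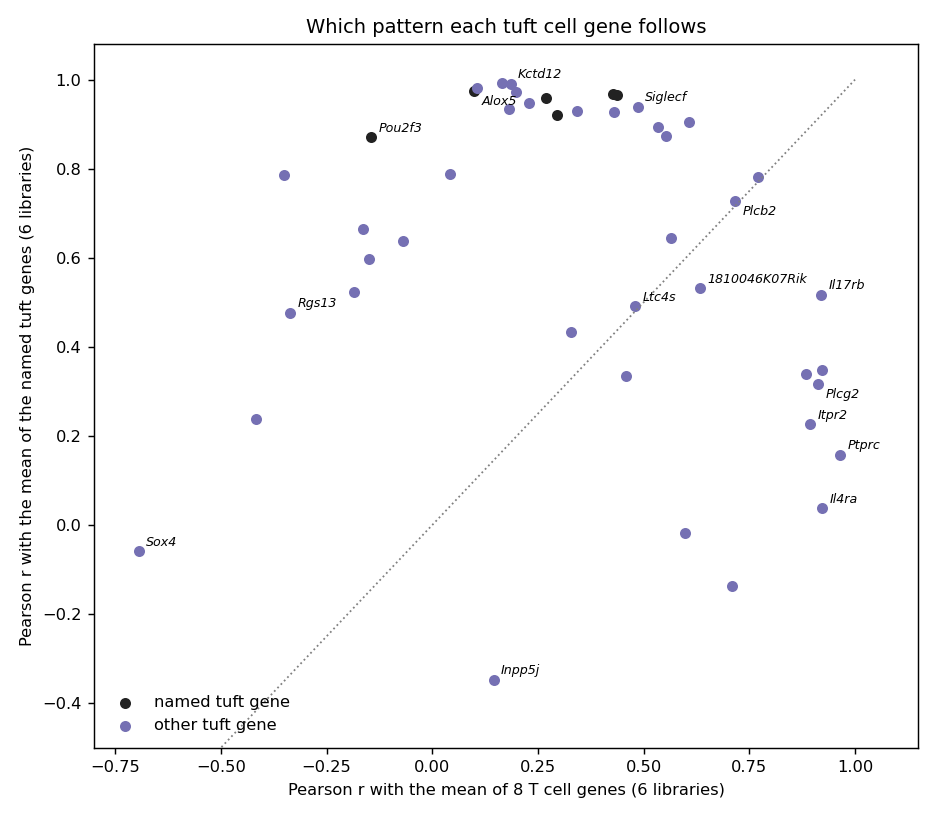
Pearson r over 6 libraries of each tested tuft cell gene with the mean deviation of the named tuft genes (vertical axis) and of 8 T cell genes (horizontal axis). The named genes (black) lie at 0.87 or higher on the vertical axis, and a group with Ptprc, Il4ra, Itpr2 and Plcg2 lies far to the right at low vertical values.

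The T cell genes themselves were lower on average in Mtg16 KO crypts. Their summed TPM ran from 155 to 539 in WT and from 80.5 to 246 in Mtg16 KO crypts. All 8 genes were below 0, none was called and all 8 were highest in WT replicate 1. The 8 enterocyte genes were also highest in that mouse, as were 31.4% of all tested genes. Ptprc, Ptpn6, Plcg2, Inpp5d and Vav1 are also expressed by leukocytes. The part of T cells or of enterocytes in the values of the 12 genes was not tested. B and plasma cell genes summed to 20.2 to 55.9 TPM in WT and 31.8 to 81.0 in Mtg16 KO crypts, and myeloid genes to 21.4 to 28.2 and 24.8 to 28.5. Genes of stroma and endothelium summed to 12.1 to 17.2 and 13.5 to 19.9 TPM, most of it from Vim. Neuronal and glial genes, listed because neurons express Dclk1, summed to at most 2.97 TPM in any library.

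Mast cells also use Ptgs1, Alox5 and Hpgds. The 2 tested mucosal mast cell proteases had lower values in each Mtg16 KO mouse than in any WT mouse, as did 11.1% of all tested genes. Mcpt1 (chosen after its values were seen, as was Mcpt2) had a TPM of 13.0, 15.2 and 8.64 in WT and 0.96, 0.65 and 2.77 in Mtg16 KO crypts. The groups were well apart, with a log2 fold change of -2.49 (SE 0.34) that just missed the limit (limma adjusted p = 0.104). Mcpt2 had a TPM of 6.65, 5.99 and 4.02 against 0.34, 0.92 and 2.75 (log2 fold change -1.60, SE 0.38, limma adjusted p = 0.225). WT replicate 3 was the lowest WT mouse for both proteases and the highest for Ptgs1 and Alox5. The part of mast cells in the values of Ptgs1, Alox5 and Hpgds was not tested. The other mast cell genes were low. Cpa3, Cma1, Ms4a2 and Tpsb2 were at 0.20 TPM or less in every library. Fcer1a was at 0.25 to 0.45 TPM in WT and 0 to 0.22 in Mtg16 KO crypts, and Mcpt4 at 0.23 to 0.84 and 0 to 0.17, both without overlap and under the limit for testing. Il33, an alarmin of type 2 immunity, had a TPM of 19.1, 6.97 and 5.40 in WT and 6.10, 3.78 and 4.82 in Mtg16 KO crypts, with overlapping groups.

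Other epithelial lineages went both ways in the same mice. The goblet cell and enterocyte medians were below 0, as was that of the tuft set (-0.43). The 12 enteroendocrine genes had a median log2 fold change of 0.50 with 12 above 0 and 8 whose groups did not overlap, against 9.94% of all genes in that direction, and the 7 Paneth cell genes one of 0.96 with 7 above 0. The 7 goblet cell genes had a median of -0.43 with 5 below 0, and the 8 enterocyte genes one of -1.21 with 8 below 0. No gene of these lists was called by limma at an adjusted p under 0.1. The difference between the tuft set and these lists was not tested. The library means of the tuft and enteroendocrine genes correlated negatively over the 6 libraries (r = -0.714), with WT replicate 3 highest in the one and lowest in the other. They did not oppose each other in every mouse. WT replicate 1 was above WT replicate 2 in both, and Mtg16 KO replicate 3 was the highest Mtg16 KO mouse in both.

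Outside the tuft lists, the 5 genes whose log2(TPM + 1) most resembled the mean of the named genes over the 6 libraries were Patl1, Dgki, Rgs22, Slc25a30 and Cox4i1, with r between 0.969 and 0.979. Dgki, a diacylglycerol kinase, had a TPM of 1.34, 1.31 and 3.17 in WT and 0.82, 1.21 and 1.18 in Mtg16 KO crypts. Rgs22 had a TPM of 1.14, 0.59 and 2.55 against 0.43, 0.53 and 0.76, the same rise in WT replicate 3. In Patl1, Slc25a30 and Cox4i1 the log2 fold change was -0.19 or nearer to 0. An r over 0.9 was found in 0.546% of all tested genes and in 10 of the 38 wider tuft genes, and 6 libraries leave such values loosely fixed.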

How the data were processed

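Crypts were profiled by RNA sequencing of total RNA depleted of ribosomal RNA, with 3 WT and 3 Mtg16 KO mice, grouped by sample title. The authors deposited TPM values per gene symbol from RSEM, rounded to 2 decimals and not filtered. The submitters' processing notes name cutadapt 1.9.1, STAR 2.5.2a, RSEM 1.3.0, DESeq2 1.12.3 and mm10. The annotation is not given in the sources used here. TPM keeps no read number, so the depth is unknown and no counting interval is given. TPM also sums to the same total in each library, so a gain in abundant genes lowers all others.

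All genes whose TPM averaged 1 or more were tested with limma 3.58.1 (R 4.3.3, lmFit and eBayes with an intensity trend) on log2(TPM + 1), Mtg16 KO against WT, with Benjamini-Hochberg adjustment over all 12268 genes and a limit of 0.1. The pseudocount of 1 understates the change of low genes. For 1 gene at a time an exact permutation test, two-sided, was also run. Since animals are separate, p-values measure the spread between mice. The set and all lists were chosen with earlier results of these data known. Named genes were all members and, per role group of the wider list, up to 5 by mean TPM and up to 3 by fold change among those without overlap. Others, such as Pik3cg, Rgs13 and Tas1r3, were named after their values were seen. Positions are RefSeq GRCm38.p6, the same assembly as mm10, and overlaps between genes come from GENCODE vM21. A few listed genes are not reported here and were left out of the list counts. The fit was tested on simulated data. Count tests such as DESeq2 need reads and were not run.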

Additional observations from a re-analysis of the deposited data

How the results depend on the processing

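The median log2 fold change of the tuft set lay between -0.71 (array weights) and -0.35 (no filter, with Gfi1b and Il25 included) in 8 alternatives, and between -0.62 and -0.21 with a mouse left out. None of the tuft genes tested was called in any of them, which were 6 genes except at a mean TPM of at least 5 (4) and with no filter (8). The number of genes called over the whole table, 4, was 855 with array weights, 15 at a mean TPM of at least 5, 1 after quantile normalization, 0 with median-ratio rescaling, no filter or no intensity trend, and 0 (without Mtg16 KO replicate 3) to 20 (without WT replicate 1) with a mouse left out. In the wider list, 7 were called with array weights (Plcb2, Spib, 1810046K07Rik, Ltc4s, Siglecf, Ptpn6 and Matk) and 0 with any mouse left out. Those 7 were all lower in Mtg16 KO crypts.

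The replicate numbers in the labels belong to different animals. Deviations of same-numbered mice correlated at r = 0.429, 0.0753 and 0.237, not all above 0.1, so the numbers were not taken as pairs, although 5 of the 6 libraries correlated best with their own number. With the replicate block 1201 genes were called, among them 4 of the wider list (Plcg2, 1810046K07Rik, Ltc4s and Ptpn6), while the tuft set had adjusted p between 0.179 and 0.646.

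Of the 44 tuft genes, 11 changed sign under some setting. With a mouse left out, the log2 fold change ran from -0.33 to 0.055 in Pou2f3, -0.32 to 0.63 in Gng13, -0.12 to 0.40 in Hmx2, -0.37 to 0.081 in Hmx3, -0.15 to 0.48 in Hpgds, -0.20 to 0.31 in Il13ra1, -0.24 to 0.021 in Inpp5j, -0.40 to 0.0090 in Tas1r3, -0.080 to 0.43 in Rgs13, -0.19 to 0.036 in Vav1 and -0.53 to 0.060 in Ly6g6f. With array weights it was -0.78 in Gng13, -0.31 in Hmx2, 0.087 in Tas1r3 and -0.030 in Rgs13. The cause was not tested.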
